A study of Arabidopsis thaliana with 18 samples.

Results

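Abscisic acid (ABA) and dehydration response genes were taken from the gene table as the genes whose symbol belongs to ABA synthesis, perception or signalling, or to the COR, LEA, LTI, RAB18, RD, ERD and XERO families named for cold, late embryogenesis, dehydration and ABA. The rule found 44 genes of the 11437 in the table. The table is partial: its genes number 41.5% of the protein-coding genes of RefSeq and hold 48.4% to 49.0% of the TPM. The 44 do not include NCED3, ABI1, ABI5 or PYR1, so counts by role cover the members found and not the whole pathway. Of the 44, 5 were grouped under ABA synthesis by symbol (NCED4 among them), 3 are receptors and 5 are PP2C phosphatases. Another 5 are transcription factors or a partner of one, 10 are dehydrins and other LEA proteins, and 12 are other cold and dehydration genes. The remaining 4 carry a matching symbol and were given none of these roles: RABC1, which shares the symbol RAB18, HSP70T-1 and ERD2, which share the symbol ERD2, and AHG11, which encodes a pentatricopeptide repeat protein. RNA came from whole Col-0 seedlings of Arabidopsis thaliana, aged 14 days and grown with 12 h of light and 12 h of darkness. Seedlings were moved just before lights on (Zeitgeber time 0, ZT0) to fresh 1/2MS medium with 10 µM DPI, 25 µM pentamidine isethionate (PI), 12.5 µM AEG3482 (AEG), 2 µM Tyrphostin AG879 (TYR) or 0.1% DMSO, and collected at ZT2. Untreated seedlings were collected at ZT0. The series title calls the chemicals modifiers of sugar signalling. Each of the 6 groups had 3 libraries, and no label says whether they came from separate plates or plants, so p-values measure the spread between these libraries, which may be technical.

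ABA is made from carotenoids in plastids and accumulates when cells lose water. Bound to PYR/PYL receptors it inhibits PP2C phosphatases, which frees SnRK2 kinases to activate ABF transcription factors, and these bind the ABA responsive element (ABRE) in the promoters of dehydrin and LEA genes. Cold and drought act on many of the same genes through CBF and DREB factors, which bind the dehydration-responsive element (DRE), and some of the genes also follow the circadian clock, whose morning factors bind the evening element.

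Promoters of 4 members that the results turn on are given below as the 250 bases before the annotated start of the gene in RefSeq TAIR10.1. Each runs 5′ to 3′ on the strand of its gene, with the motifs that were searched in capitals. COR15A lies at chr2:17712331-17712580 on the minus strand, LTI78 at chr5:21240467-21240716 on the plus strand, RD20 at chr2:14146556-14146805 on the minus strand and RAB18 at chr5:26519448-26519697 on the minus strand. All 4 genes were higher at ZT2 than at ZT0, and their promoters carry an ABRE or DRE core. They were picked for display. COR15B, LEA3, ABF2, RD28 and ERD4, which were also higher, held none of the motifs searched. Most of the COR15B window lies within the annotated COR15A gene. Whether the motifs have a part in the increases was not tested. The motifs, searched on both strands, were ACGTG (the ABRE core), CCGAC (the DRE core), CACGTG (the G-box, which contains ACGTG) and AAAATATCT (the evening element).
COR15A: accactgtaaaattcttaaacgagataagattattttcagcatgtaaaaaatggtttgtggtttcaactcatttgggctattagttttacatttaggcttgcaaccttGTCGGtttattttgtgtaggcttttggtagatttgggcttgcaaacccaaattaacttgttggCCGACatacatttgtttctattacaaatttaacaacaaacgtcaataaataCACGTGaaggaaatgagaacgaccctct
LTI78: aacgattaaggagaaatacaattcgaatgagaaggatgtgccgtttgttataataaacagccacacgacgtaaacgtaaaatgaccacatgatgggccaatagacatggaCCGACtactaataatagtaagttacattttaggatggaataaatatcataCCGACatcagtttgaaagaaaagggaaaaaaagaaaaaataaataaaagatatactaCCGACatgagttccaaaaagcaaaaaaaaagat
RD20: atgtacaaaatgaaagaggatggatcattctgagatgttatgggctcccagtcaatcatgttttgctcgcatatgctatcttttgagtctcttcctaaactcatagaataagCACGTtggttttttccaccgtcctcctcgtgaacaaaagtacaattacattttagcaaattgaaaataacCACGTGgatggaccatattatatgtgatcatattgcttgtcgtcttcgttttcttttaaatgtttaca
RAB18: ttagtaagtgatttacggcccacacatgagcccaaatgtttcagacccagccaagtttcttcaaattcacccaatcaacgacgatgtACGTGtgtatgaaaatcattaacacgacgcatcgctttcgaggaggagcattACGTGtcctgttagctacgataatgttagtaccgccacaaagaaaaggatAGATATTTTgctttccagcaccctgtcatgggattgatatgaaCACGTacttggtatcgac
COR15A holds CCGAC at positions -142 to -138 and -79 to -75 from the start, and a G-box at -28 to -23. LTI78 holds CCGAC 3 times, beginning at -140, -90 and -33, and no ACGTG within the 250 bases shown. Bases past the annotated start were not searched, so an ABRE outside this window would be missed. RD20 holds ACGTG beginning at -138 and a G-box at -68 to -63. RAB18 holds ACGTG 3 times, beginning at -163, -111 and -18, and an evening element at -61 to -53.

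Over all 44 members, 24 promoters (54.5%) held ACGTG, against 22.9% of 27437 nuclear protein-coding promoters of the same length. CCGAC stood in 14 member promoters (31.8%), against 12.0% of all promoters, and the G-box in 14 (31.8%), against 6.49%. The evening element stood in 4 (9.09%), against 2.36%. Among the 19 members that were higher with DMSO at ZT2 than in untreated seedlings at ZT0, 10 held ACGTG (52.6%) and 5 held CCGAC (26.3%). These are matches of letters and not measured binding sites.

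The libraries held between 3156993 and 3249697 counts over the listed genes, so that 3 counts, taken as the detection floor, corresponded to between 0.923 and 0.950 CPM (counts scaled to a common library total). Levels are given below as the TPM that the authors deposited, a transcript abundance scale that corrects for transcript length. Libraries within a group did not all resemble each other: FSD1, an iron superoxide dismutase, had 5492 to 5857 counts in the 3 untreated libraries and 3041 to 5101 counts in 5 of the 15 ZT2 libraries (DPI 1, PI 1, AEG 1, TYR 3 and DMSO 1), but 0 to 15 counts in the other 10. Against the tissue label, the leaf marker LHCB2.1 had 4241.8 to 5805.7 TPM in DMSO libraries and 2952.5 to 3322.2 TPM in untreated libraries, and seed storage genes were at or near 0, with 2 of 6 seed markers in the table and a summed level of at most 0.43 TPM. The other seed and leaf markers were not analysed here. In RNA from whole seedlings, fewer cells of a type and less RNA per cell cannot be told apart.

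DMSO medium at ZT2 was first set against untreated seedlings at ZT0. Transfer, the solvent, light and the elapsed time differ together between these groups and cannot be told apart. Of the 44 members, 36 had enough counts to be tested, and 19 of them were higher and 2 lower with DMSO at ZT2 (edgeR's quasi-likelihood test, adjusted p under 0.05 after Benjamini-Hochberg). That is 52.8% higher and 5.56% lower, where 19.6% of all 9006 tested genes were higher and 16.0% lower, 35.6% in all. The median log2 fold change was 0.85 over the 36 members, 0.84 without HAI2, which had no counts in untreated libraries, and 0.02 over all tested genes. In 21 of the 44 members all 15 ZT2 libraries lay above or all lay below the 3 untreated libraries in TPM (47.7%), as did 24.3% of the 11437 genes of the table.

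**Figure D1:**
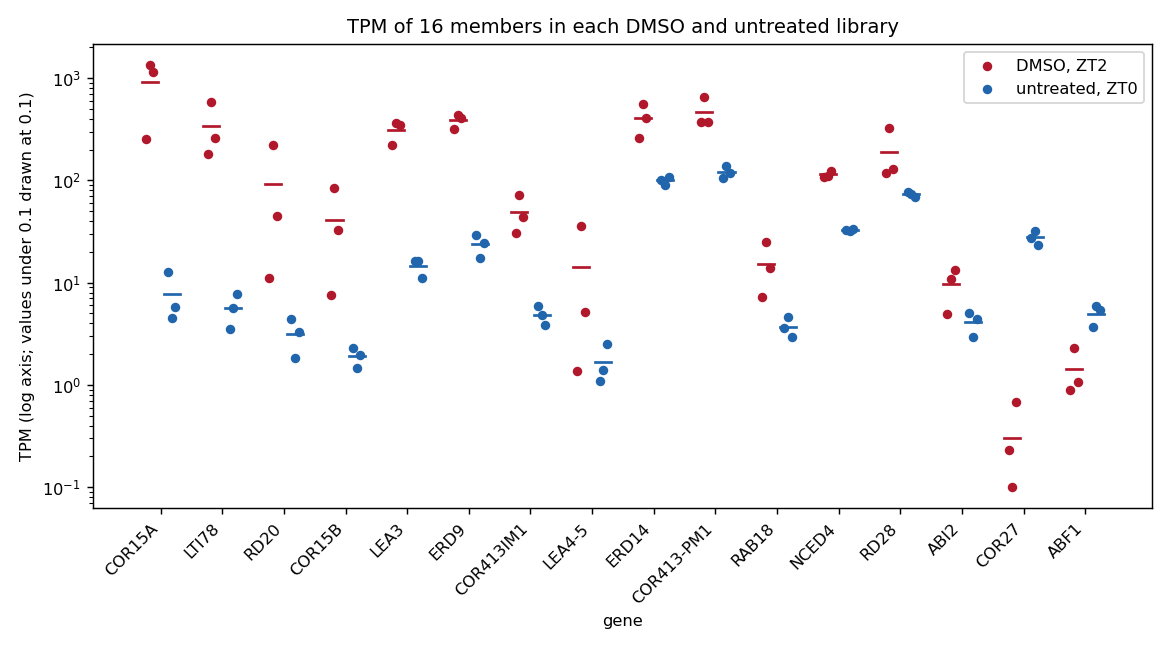
TPM on a log axis (values under 0.1 drawn at 0.1) of 16 members in the 3 DMSO libraries at ZT2 (red, left) and the 3 untreated libraries at ZT0 (blue, right), with lines at the means. The means of the first 14 genes lie higher with DMSO, those of COR27 and ABF1 lie lower, and the DMSO points of RD20, COR15B and LEA4-5 spread the widest.

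The largest increases were in LEA and cold genes. COR15A (AT2G42540), which encodes a chloroplast stromal LEA protein that protects membranes during freezing, had 255.6, 1340.8 and 1134.9 TPM in DMSO libraries, against 12.8, 4.53 and 5.72 TPM in untreated libraries. The lowest DMSO library, replicate 1, was still far above the highest untreated one. The log2 fold change was 6.61 (SE 0.61, 95% interval 5.33 to 7.90), a 98.0-fold difference, with an adjusted p of 9.24e-08 by edgeR's quasi-likelihood test. By mean TPM, COR15A ranked 1 among the members with DMSO (910.4 ± 576.4, SD, n = 3) and 23 in untreated seedlings (7.67 ± 4.45, SD, n = 3). Without DMSO replicate 2 the difference was 65.0-fold. Its neighbour on the chromosome COR15B (AT2G42530), a close relative, had 7.50, 84.1 and 32.4 TPM in DMSO libraries and 2.31, 1.47 and 1.94 TPM in untreated libraries. Here too the groups did not overlap, and the log2 fold change was 4.50 (SE 0.76, adjusted p 0.000113), or 3.42 without DMSO replicate 2. Some COR15B counts were not whole, while COR15A counts were whole in every library. Where any shared reads of COR15B come from was not tested.

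LTI78 (AT5G52310), also known as RD29A and used widely as a reporter of ABA, drought and cold responses, had 180.3, 583.3 and 260.6 TPM in DMSO libraries and 3.51, 5.70 and 7.68 TPM in untreated libraries. The groups were far apart, with a log2 fold change of 5.99 (SE 0.40, 95% interval 5.15 to 6.83, adjusted p 1.51e-09 by edgeR's quasi-likelihood test), or 5.33 without DMSO replicate 2. RD20 (AT2G33380), a caleosin of lipid droplets, had 11.2, 221.5 and 44.8 TPM in DMSO libraries and 4.36, 1.83 and 3.29 TPM in untreated libraries. Its groups did not overlap either, but replicate 2 dominated the DMSO mean: the log2 fold change of 4.94 (SE 1.11, adjusted p 0.00159), a 30.8-fold difference, became 3.18 (9.06-fold, adjusted p 0.0246) without it. ERD9 (AT1G10370), a glutathione S-transferase, had 316.4, 431.3 and 408.9 TPM in DMSO libraries and 29.5, 17.5 and 24.3 TPM in untreated libraries. ERD9 was among the most even of the large increases, and its log2 fold change of 4.06 (SE 0.25) had the smallest adjusted p of any member in this comparison, 4.51e-10.

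Among the remaining LEA genes, LEA3 (AT1G02820) had 221.8, 365.6 and 350.7 TPM with DMSO and 16.4, 16.1 and 11.1 TPM in untreated seedlings, a log2 fold change of 4.47 (SE 0.35, adjusted p 1.01e-08). The dehydrin ERD14 (AT1G76180), a disordered protein with chaperone activity, had 261.9, 561.1 and 411.3 TPM with DMSO and 100.7, 90.0 and 109.0 TPM in untreated seedlings. No ERD14 value with DMSO fell within the untreated range, and the log2 fold change was 2.11 (SE 0.23, adjusted p 7.64e-07). The dehydrin RAB18 (AT5G66400), a classical ABA marker, stayed at a much lower level, with 7.26, 24.7 and 13.9 TPM with DMSO and 3.58, 4.58 and 2.97 TPM in untreated seedlings. It was 4.25-fold higher with DMSO (log2 fold change 2.09, SE 0.40, adjusted p 0.000436). LEA4-5 (AT5G06760) had 1.38, 35.8 and 5.21 TPM with DMSO and 1.09, 1.40 and 2.52 TPM in untreated seedlings, so that the groups overlapped. Its log2 fold change of 3.12 (SE 0.95, adjusted p 0.0141) rested on DMSO replicate 2, without which it was 1.01 (adjusted p 0.425), and the adjusted p was 0.0523 and 0.0512 without untreated replicates 1 and 2. Of the 10 dehydrin and LEA members, 7 were tested and 6 of those were higher. LEA18, the 7th, had 0 to 21 counts at ZT2 and 0 to 11 counts in untreated libraries. The other 3 had too few counts for the main test: XERO1 and AtLEA4-1 reached at most 6 and 15 counts in any ZT2 library, and LEA7 had 0 to 31 counts at ZT2 and 0 in each untreated library.

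Of the 12 other cold and dehydration genes, 7 were higher and 1 lower with DMSO, LTI78, RD20 and ERD9 among the higher ones. COR413IM1 (AT1G29395), of the chloroplast inner envelope, had 30.6, 71.8 and 44.3 TPM with DMSO and 5.90, 4.83 and 3.86 TPM in untreated seedlings, a log2 fold change of 3.37 (SE 0.33, adjusted p 1.72e-07). COR413-PM1 (AT2G15970), assigned to the plasma membrane, had 373.5, 656.0 and 372.3 TPM with DMSO and 105.2, 137.9 and 118.7 TPM in untreated seedlings. It was the member with the second highest mean level with DMSO, and its log2 fold change was 2.1 (SE 0.20, adjusted p 1.51e-07). The aquaporin RD28 (AT2G37180) had 118.2, 325.9 and 128.2 TPM with DMSO and 77.7, 72.9 and 69.2 TPM in untreated seedlings. The groups did not overlap, with a log2 fold change of 1.44 (SE 0.36, adjusted p 0.00365), but without DMSO replicate 2 it was 0.78 (adjusted p 0.0547). All RD28 counts came from estimates that were not whole, so reads may be shared with its close relatives. ERD4, a membrane protein, had 232.8, 235.8 and 239.3 TPM with DMSO and 124.7, 141.0 and 141.5 TPM in untreated seedlings, and was 1.80-fold higher (adjusted p 0.00107). COR314-TM2, a relative of COR413IM1 that lies beside it, did not pass the test, with a log2 fold change of 0.40 (adjusted p 0.115).

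**Figure D2:**
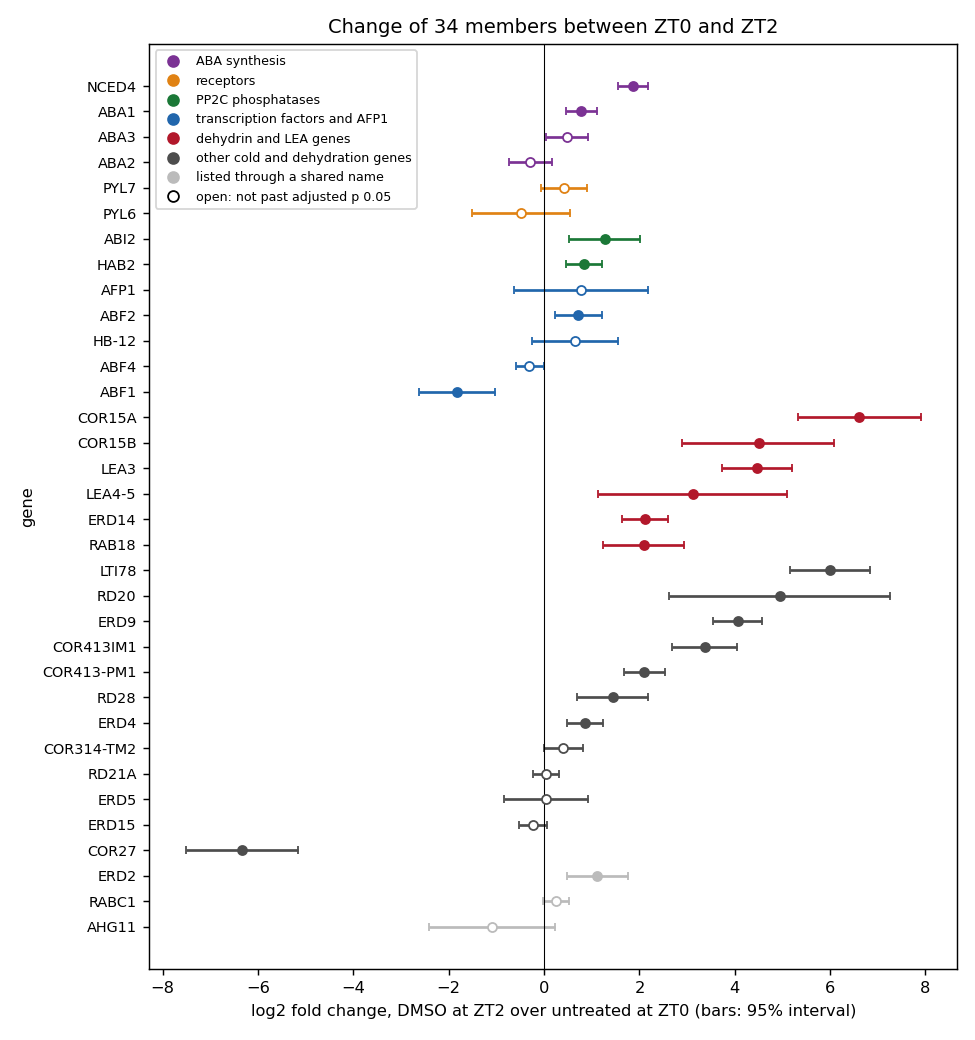
Log2 fold change of DMSO at ZT2 over untreated seedlings at ZT0 for 34 members, coloured by role, with 95% intervals as bars and open symbols where the adjusted p was not under 0.05. HAI2 and LEA18 are left out because their counts were near 0. Most dehydrin, LEA and cold genes lie right of 0, the receptors near 0, and COR27 at -6.34.

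The decreases were COR27 and ABF1, which have low average counts and are named here after their values were seen. COR27 (AT5G42900), a cold-regulated gene whose product acts in the circadian clock and in freezing tolerance, had 0.23, 0 and 0.68 TPM with DMSO and 27.6, 32.2 and 23.4 TPM in untreated seedlings. Over all 15 ZT2 libraries it had 0 to 4 counts, with 4 libraries at 0, against 101 to 139 counts in untreated libraries. It was therefore close to the detection floor in every ZT2 library, with a log2 fold change of -6.34 (SE 0.56, 95% interval -7.51 to -5.16, adjusted p 5.09e-08), or -7.53 without DMSO replicate 3. ABF1 (AT1G49720), a bZIP factor that binds ABREs, had 0.89, 2.32 and 1.07 TPM with DMSO and 3.72, 5.86 and 5.35 TPM in untreated seedlings. The groups did not overlap, and the log2 fold change was -1.83 (SE 0.38, adjusted p 0.000887).

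Of the 5 members grouped under ABA synthesis by symbol, 4 were tested and 2 were higher. NCED4 (AT4G19170), also known as CCD4, cleaves carotenoids and is not the enzyme that commits carotenoids to ABA. It had 108.2, 110.9 and 124.2 TPM with DMSO and 32.4, 31.9 and 33.1 TPM in untreated seedlings, a 3.64-fold difference (log2 fold change 1.86, SE 0.15, adjusted p 1.28e-08) with little spread in either group. ABA1 (AT5G67030), zeaxanthin epoxidase, had 363.1, 422.9 and 286.5 TPM with DMSO and 212.1, 217.4 and 220.5 TPM in untreated seedlings, and was 1.71-fold higher (adjusted p 0.000622). The later enzymes did not pass the test: ABA2, which converts xanthoxin, had a log2 fold change of -0.29 (adjusted p 0.321) and ABA3, which activates the cofactor of the last enzyme, 0.49 (adjusted p 0.0748). NCED2, an enzyme of the committing step, reached at most 3 counts in any ZT2 library and 2 in untreated libraries.

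Neither tested receptor passed, PYL6 at a log2 fold change of -0.49 (SE 0.49, adjusted p 0.469) and PYL7 at 0.42 (SE 0.23, adjusted p 0.171), and PYL11 reached at most 3 counts in any library. PYL7 counts were not whole and may include reads of a related gene. Among the phosphatases, which hold the pathway off, ABI2 (AT5G57050) had 4.98, 10.9 and 13.3 TPM with DMSO and 5.02, 2.97 and 4.40 TPM in untreated seedlings. The lowest DMSO library lay just below the highest untreated one, and the log2 fold change of 1.27 (SE 0.35, adjusted p 0.00859) became 1.01 (adjusted p 0.0534) without DMSO replicate 3. HAB2 (AT1G17550) was 1.79-fold higher (adjusted p 0.00118), at 20.8, 31.2 and 24.4 TPM with DMSO and 13.9, 14.2 and 17.0 TPM in untreated seedlings, with no overlap. HAI2, HAI3 and AHG1 were near or at the floor: HAI2 had 0 to 21 counts at ZT2 and 0 in each untreated library, HAI3 had 0 to 10 and 0 to 1, and AHG1 had 0 to 3 and 0.

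Of the transcription factors, ABF2 (AT1G45249) had 27.5, 38.6 and 26.0 TPM with DMSO and 17.6, 19.6 and 20.5 TPM in untreated seedlings. Its log2 fold change of 0.72 (SE 0.24, adjusted p 0.0222) did not hold without DMSO replicate 2 (0.51, adjusted p 0.131), nor without untreated replicate 1 or 2 (adjusted p 0.0688 and 0.0563). ABF4 had a log2 fold change of -0.31 (adjusted p 0.101). The homeodomain factor HB-12, known as drought induced, had 38.7, 145.3 and 50.4 TPM with DMSO and 47.5, 57.5 and 50.2 TPM in untreated seedlings, and did not pass (0.65, adjusted p 0.262). AFP1, which binds the transcription factor ABI5, was likewise carried by replicate 2, at 5.47, 51.4 and 17.4 TPM with DMSO and 13.5, 16.6 and 15.2 TPM in untreated seedlings (0.77, adjusted p 0.400). The untreated libraries of both genes lay inside the range of the DMSO libraries.

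Not every gene named for dehydration was higher. RD21A, a cysteine protease, had 387.0 ± 64.4 TPM with DMSO and 390.0 ± 33.7 TPM in untreated seedlings (SD, n = 3 each), and was the member with the highest level before lights on. ERD5, the mitochondrial proline dehydrogenase, had 137.3, 47.4 and 117.3 TPM with DMSO and 90.5, 117.4 and 95.7 TPM in untreated seedlings, with a log2 fold change of 0.03 (95% interval -0.85 to 0.92). ERD15, a small protein that dampens ABA responses, had 287.0, 219.7 and 294.0 TPM with DMSO and 328.5, 326.0 and 316.1 TPM in untreated seedlings. Its groups did not overlap, yet its log2 fold change of -0.23 did not pass (adjusted p 0.234). Of the genes listed through a shared symbol, ERD2, the receptor that returns proteins to the endoplasmic reticulum, had 16.9, 33.3 and 21.8 TPM with DMSO and 12.3, 9.29 and 12.9 TPM in untreated seedlings. It was higher with DMSO (log2 fold change 1.11, adjusted p 0.00817), but the call was lost without DMSO replicate 2 (0.79, adjusted p 0.0678). RABC1, a small GTPase, did not pass (0.25, adjusted p 0.138), and HSP70T-1 reached at most 2 counts. AHG11, listed through its own symbol, did not pass either (-1.10, adjusted p 0.187).

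The 4 chemical groups at ZT2 were then each set against the same untreated libraries, so these comparisons share their ZT0 side. Of the 36 tested members, 22 were higher and 3 lower under AEG, where 21.2% and 18.8% of all tested genes were. Under DPI 21 members were higher and 4 lower (all genes 21.7% and 18.4%), under PI 19 and 3 (all genes 20.2% and 17.8%), and under TYR 17 and 3 (all genes 20.1% and 17.3%). For the average of the 5 media at ZT2 against untreated seedlings, 22 members were higher (61.1%) and 4 lower (11.1%), beside 25.5% and 24.2% of all tested genes, 49.7% in either direction. Beyond those called with DMSO alone, this average called COR314-TM2 (log2 fold change 0.50, adjusted p 0.0118), RABC1 (0.26, adjusted p 0.0454) and HAI2 (adjusted p 0.0411) higher, and ERD15 (-0.43, adjusted p 0.00277) and AHG11 (-1.35, adjusted p 0.0196) lower, all by edgeR's quasi-likelihood test. COR27 had the smallest adjusted p of the members in this average, 4.60e-12, at a log2 fold change of -6.40 (SE 0.31). Each chemical group kept COR27 at or near 0, with mean levels of 0.457 ± 0.460 TPM with DPI, 0.373 ± 0.124 TPM with PI, 0.153 ± 0.133 TPM with AEG, 0.227 ± 0.225 TPM with TYR and 0.303 ± 0.346 TPM with DMSO, against 27.8 ± 4.42 TPM in untreated seedlings (SD, n = 3 each).

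Which of these levels the chemicals moved was asked by setting each against DMSO at ZT2, with the 3 DMSO libraries shared by all comparisons. No member was called with DPI, PI, AEG or TYR, and the background was 0.0% of all tested genes in each case by edgeR's quasi-likelihood test. DESeq2 also called 0 members in each. At an unadjusted p under 0.05, 2 of 36 members passed under AEG, where 3.35% of all genes did, 1 under DPI (3.58%), 0 under PI (2.48%) and 1 under TYR (3.91%). A test for any difference among the 5 media called 0 members as well, with a background of 0.0%, and 2 members, COR413IM1 and COR15B, had an unadjusted p under 0.05 (0.00235 and 0.0411 by edgeR's quasi-likelihood test, adjusted p of at least 0.973), beside 4.22% of all genes. Median log2 fold changes of the members over DMSO were 0.14 for AEG, 0.06 for DPI, 0.05 for PI and -0.11 for TYR.

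The intervals show what size of difference the libraries could hold. Over 34 members the 95% interval reached a median of 0.56 log2 units either side of the estimate for AEG and for DPI, and 0.57 for PI and for TYR. It lay wholly between -1 and 1 for 21 members under AEG, 19 under DPI, 22 under PI and 21 under TYR. COR15A averaged 1374.7 ± 786.6 TPM with DPI, 747.1 ± 199.2 TPM with PI, 1507.4 ± 739.4 TPM with AEG, 770.6 ± 443.3 TPM with TYR and 910.4 ± 576.4 TPM with DMSO (SD, n = 3 each). The groups overlapped widely, and the interval of the log2 difference to DMSO ran from -0.24 to 1.7 for AEG, from -0.48 to 1.45 for DPI, from -1.18 to 0.76 for PI and from -1.41 to 0.53 for TYR. LTI78 averaged 473.2 ± 59.5 TPM with DPI, 327.1 ± 108.8 TPM with PI, 493.9 ± 44.0 TPM with AEG, 276.7 ± 38.4 TPM with TYR and 341.4 ± 213.3 TPM with DMSO (SD, n = 3 each). Its intervals were -0.10 to 1.22 for AEG, -0.24 to 1.07 for DPI, -0.67 to 0.65 for PI and -0.98 to 0.34 for TYR. ERD9 had narrower intervals than these, -0.01 to 0.87 for AEG, -0.44 to 0.44 for DPI, -0.29 to 0.60 for PI and -0.36 to 0.53 for TYR.

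**Figure D3:**
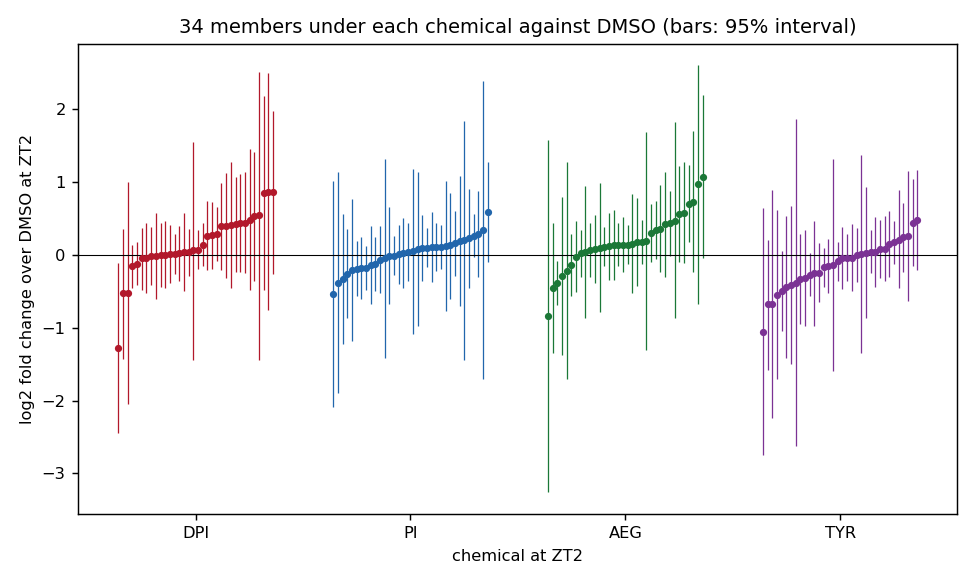
Log2 fold change over DMSO at ZT2 of 34 members with DPI, PI, AEG and TYR, each sorted from lowest to highest, with 95% intervals as bars. All bars cross 0 except PYL6 with DPI and COR413IM1 and ERD15 with AEG, and the estimates lie between -1.28 and 1.07.

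For each chemical, the 2 members with the smallest unadjusted p were the following. With AEG, COR413IM1 had 93.1, 77.9 and 61.8 TPM, against 30.6, 71.8 and 44.3 TPM with DMSO. The ranges overlapped, and the log2 difference was 0.70 (95% interval 0.17 to 1.23, unadjusted p 0.0117, adjusted p at least 0.999 by edgeR's quasi-likelihood test). ERD15 had 205.1, 165.3 and 225.6 TPM with AEG and 287.0, 219.7 and 294.0 TPM with DMSO, a log2 difference of -0.38 (95% interval -0.69 to -0.08, unadjusted p 0.0149). With DPI, the receptor gene PYL6 had 1.99, 2.52 and 1.01 TPM, against 6.15, 2.14 and 4.81 TPM with DMSO, and the phosphatase gene HAB2 had 37.9, 34.0 and 24.7 TPM, against 20.8, 31.2 and 24.4 TPM with DMSO. Both pairs of groups overlapped, with log2 differences of -1.28 (95% interval -2.45 to -0.11, unadjusted p 0.0334 by edgeR's quasi-likelihood test) and 0.29 (-0.08 to 0.66, unadjusted p 0.113). With PI, NCED4 had 128.6, 131.6 and 133.0 TPM, against 108.2, 110.9 and 124.2 TPM with DMSO, and RAB18 had 21.1, 22.1 and 23.2 TPM, against 7.26, 24.7 and 13.9 TPM with DMSO. The NCED4 groups did not overlap, but its log2 difference of 0.26 had an unadjusted p of 0.0806, and that of RAB18, 0.59, had 0.0898. With TYR, COR413IM1 had 40.3, 35.4 and 29.4 TPM, against 30.6, 71.8 and 44.3 TPM with DMSO (-0.49, 95% interval -1.04 to 0.05), and LEA18 had 0, 0 and 0.88 TPM, against 0, 7.80 and 2.99 TPM with DMSO, a level near the floor. None of these differences passed the adjustment over all genes.

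Some members varied widely between the ZT2 libraries. The standard deviation (SD) of log2 CPM over the 15 ZT2 libraries had a median of 0.45 over the 36 members and 0.26 over all tested genes. It exceeded 1 for 16.7% of the members and 1.17% of all genes. Of these 6 members, 4 had an average log2 CPM of at least 3. The others, HAI2 and LEA18, were near the floor, where counting error adds to the spread. RD20 had the largest SD of the members, 1.47, larger than in 99.8% of tested genes. It had 202.7, 276.7 and 54.4 TPM with DPI, 132.7, 46.9 and 127.4 TPM with PI, 288.5, 204.9 and 38.9 TPM with AEG, 87.4, 16.8 and 33.6 TPM with TYR and 11.2, 221.5 and 44.8 TPM with DMSO. The lowest and the highest library, DMSO 1 and AEG 1, thus differed 25.8-fold, and both belonged to the 5 ZT2 libraries with high FSD1. LEA4-5 (SD 1.13) ran from 1.38 TPM in DMSO 1 through a median of 9.55 TPM to 35.8 TPM in DMSO 2. AFP1 (SD 1.05) ran from 5.47 TPM in DMSO 1 through a median of 26.4 TPM to 80.8 TPM in DPI 2, and COR15B, with the same SD, from 7.50 TPM in DMSO 1 to 133.9 TPM in DPI 2. The spread was thus as large within the DMSO group as over all ZT2 libraries for LEA4-5.

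The same libraries recurred at the ends of these ranges. Of the 31 members whose log2 CPM averaged 3 or more, 15 had their lowest ZT2 level, in CPM, in DMSO 1, among them COR15A, LTI78, RD20, RAB18, ERD14, HB-12 and ABI2, and 7 had their highest in DPI 2. The same counts were not made over all tested genes, so they cannot be read as particular to the members. The 6 libraries with the most RD20 were AEG 1, DPI 2, DMSO 2, AEG 2, DPI 1 and PI 1, and those with the most AFP1 were DPI 2, DMSO 2, AEG 1, TYR 1, AEG 2 and DPI 1. ERD5 stood the other way round, highest in DMSO 1, AEG 3 and DMSO 3 (137.3, 119.2 and 117.3 TPM) and lowest in PI 1, AEG 2 and TYR 1 (43.1, 40.6 and 24.7 TPM). PYL6 also had its highest level in DMSO 1. What the libraries at either end share beyond these genes was not tested.

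**Figure D4:**
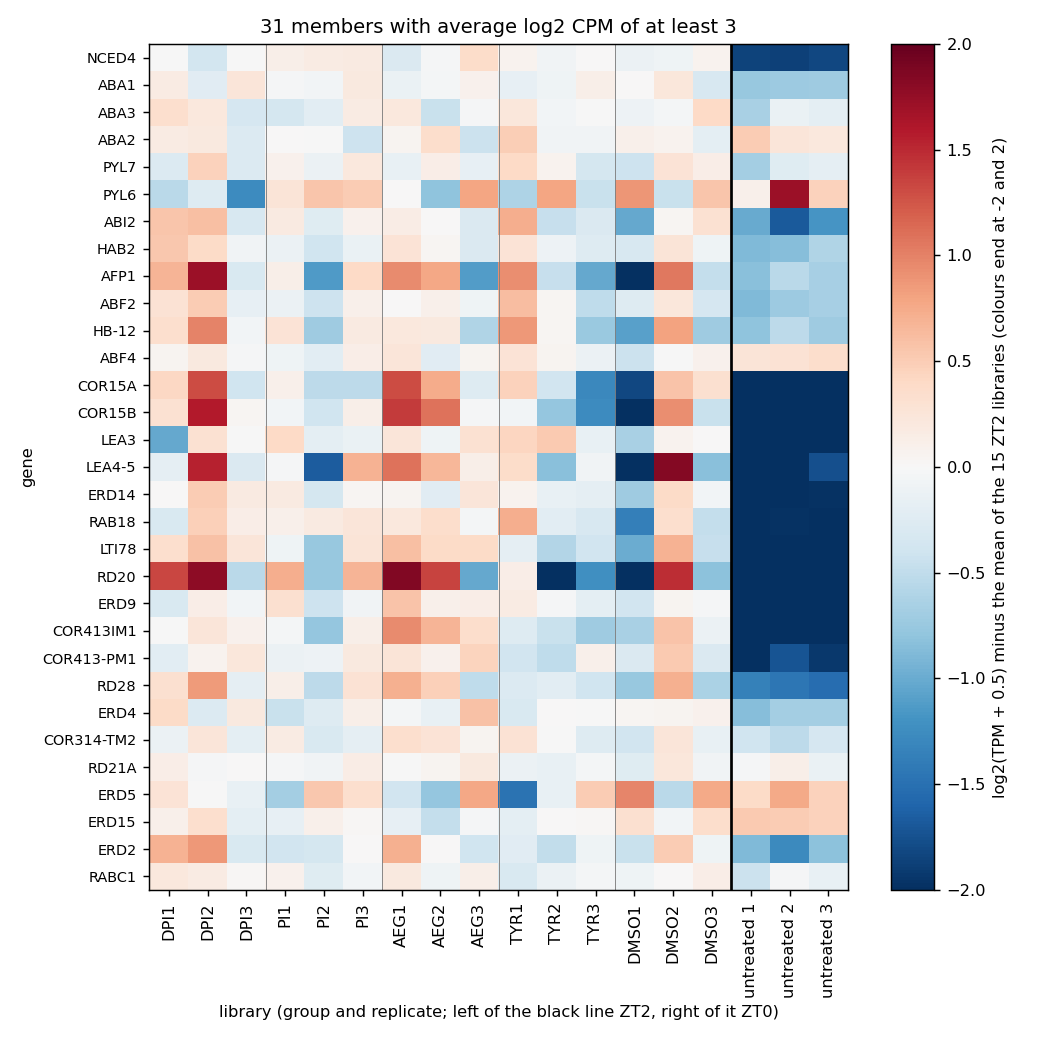
Log2(TPM + 0.5) of 31 members in each of the 18 libraries, relative to the mean of the 15 ZT2 libraries, with colours ending at -2 and 2. Left of the black line are the ZT2 libraries by medium and right of it the untreated libraries. DMSO 1 is the lowest ZT2 library by CPM for 15 of the members, a count not made over all genes. Untreated libraries are low for most cold and LEA genes.

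Genes of the ABA pathway outside the symbol rule were taken from a list of 35, of which 15 were in the table and 13 were tested. With DMSO at ZT2, 6 were higher and 1 lower than in untreated seedlings, with a median log2 fold change of 1.83, beside the background of 19.6% and 16.0%. The hydroxylase genes CYP707A4 and CYP707A1, whose products inactivate ABA, were higher, at log2 fold changes of 3.84 (SE 0.35, adjusted p 7.76e-08) and 1.83 (SE 0.42, adjusted p 0.00181), although both stayed under 10 TPM in the DMSO libraries. CYP707A4 had 2, 3 and 5 counts in untreated libraries, near the floor, so the size of its change is uncertain. CYP707A3, of the same family, did not pass edgeR's quasi-likelihood test (0.77, adjusted p 0.321). BGLU18, a glucosidase that frees ABA from its glucose ester, had 311.4, 760.5 and 549.2 TPM with DMSO and 62.8, 40.9 and 55.2 TPM in untreated seedlings, a log2 fold change of 3.40 (SE 0.53, adjusted p 4.79e-05). MYC2, a bHLH factor of jasmonate and ABA responses, had 19.0, 84.0 and 40.5 TPM with DMSO and 0, 0 and 0.81 TPM in untreated seedlings (adjusted p 6.44e-07), and no fold is given because only untreated replicate 3 had any counts. ADH1 and GOLS2, an alcohol dehydrogenase and a galactinol synthase gene, were also higher (2.11 and 2.63, adjusted p 0.000393 and 0.0422). The GOLS2 groups overlapped, and its call was lost without DMSO replicate 2 (0.77, adjusted p 0.614) and without any 1 of the untreated replicates (adjusted p 0.0598 to 0.144). Without DMSO replicate 2 the value of ADH1 was 1.5 (adjusted p 0.00403), and without untreated replicate 3 that of CYP707A1 was 2.46. KEG, a ubiquitin ligase that acts against ABI5, was lower (log2 fold change -0.42, adjusted p 0.0382), but this single decrease was lost without DMSO replicate 1 or 3, without untreated replicate 2 or 3 (adjusted p 0.0654 to 0.164) and with FSD1 as a covariate (adjusted p 0.154). The SnRK2 kinase gene OST1 did not pass (0.15, adjusted p 0.389). Beside these, the guard cell marker KAT1 was higher with DMSO than in untreated seedlings (log2 fold change 1.23, SE 0.25, adjusted p 0.000651). The other guard cell marker in the table, HT1, did not pass (-0.23, adjusted p 0.519), and together they summed to 19.2 to 25.6 TPM with DMSO and 11.1 to 14.7 TPM in untreated seedlings. The 3 root markers in the table summed to 895.0 to 1140.9 TPM with DMSO and 1017.6 to 1541.5 TPM in untreated seedlings, with none called. The part of tissue makeup in the changes at ZT2 was not tested.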

How the data were processed

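The authors deposited 1 table with an estimated count, a TPM and an FPKM value per gene and library, per the file headers; FPKM was not used. The submitters' processing notes name HISAT2 2.2.1, RSEM 1.2.22 and the build TAIR10. The 11981 lines naming a gene held 11437 gene identifiers; repeats held identical values and 1 was kept. Members were identified by gene identifier. Counts (3.59% not whole) were rounded. The table also held 1 column without a name, which was not used.

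Counts were fitted over all 18 libraries with edgeR 4.0.16 (R 4.3.3), TMM factors and filterByExpr, leaving 9006 genes. P-values from the quasi-likelihood test were Benjamini-Hochberg adjusted over all 9006 genes, with a threshold of 0.05. The pipeline was tested on simulated data. Intervals are 95%. Floors of 3 counts cover counting error only. Promoters were read from the RefSeq TAIR10.1 genome and annotation.

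Members and gene lists were chosen with earlier results of these data known. Per-library values are given for up to 14 called members with average log2 CPM of at least 3, largest change first. Those of other members (ABA1, HAB2, ERD4, ERD2, ABF2, COR27, ABF1 and members not called) were chosen after their values were seen. For each chemical the 2 members with the smallest p are named, and likewise the most variable members and those that depend on 1 library. DESeq2 1.42.0, other scalings and filters, and leaving out libraries were alternatives.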

Additional observations from a re-analysis of the deposited data

How the results depend on the processing

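The count of members called with DMSO at ZT2 against untreated seedlings at ZT0 was 21, and it lay between 17 and 22 when 1 library was left out and between 17 and 23 under the other settings (DESeq2, no TMM, looser and stricter filters, the compared libraries fitted alone, FSD1 as a covariate, and the replicate number as a block). For the average of the 5 media, which needs all groups and so had no fit of compared libraries alone, 26 members were called and the ranges were 23 to 30 and 19 to 28. All 163 such member counts, over all comparisons, lay within 1.5 times the main count, and each count against DMSO was 0. With the replicate block, 21 members were called with DMSO, 19 higher and 2 lower. Over all tested genes, same-numbered libraries did not deviate together (r between -0.311 and 0.128 over 27 pairs, each with an untreated or DMSO library), so the numbers were not taken to pair libraries. Chemical groups were not compared with each other in this way. FSD1 was high in replicate 1 of DPI, PI, AEG and DMSO, but in replicate 3 of TYR. Of the 21 called members, none changed sign, and 5 (ABF2, ABI2, ERD2, LEA4-5 and RD28) lost the call under at least 1 alternative that tested them. The filter of at least 10 counts in every library tested 28 members and called 17 higher and 0 lower. It left the called members COR27, ABF1, RD20 and LEA4-5 untested. With FSD1 as a covariate, LEA4-5 had 2.77 (adjusted p 0.0602) and ABF2 0.60 (adjusted p 0.0898), and the cause was not tested. Among members not called, signs turned when 1 library was left out for AFP1 (range -0.37 to 1.25), HB-12 (-0.18 to 0.98), PYL6 (-0.82 to 0.20), ERD5 (-0.26 to 0.37) and RD21A (-0.11 to 0.14, and -0.018 with FSD1 as a covariate), and AHG11 was called at -2.03 (adjusted p 0.0462) without DMSO replicate 1. Where every gene with at least 1 count was tested, LEA7 and HAI3 were called higher too (adjusted p 0.00858 and 0.0264). The other pathway genes were put through these alternatives only after the data had been seen: 7 were called, 5 to 8 when 1 library was left out, and 3 of the 6 that had at least 10 counts in every library, a filter that tests fewer genes; GOLS2 also lost its call with the replicate block (adjusted p 0.0685) and with FSD1 as a covariate (adjusted p 0.126). Scaling moved the median of all genes by at most 0.09 on the log2 scale. With 3 libraries a group, differences from DMSO much smaller than the intervals given were not detectable.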
